A study of Mus musculus with 9 samples.

Results

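Lx elements are a rodent branch of LINE-1, the autonomous retrotransposon that copies itself through an RNA intermediate. Their 28332 annotated copies in the mouse genome were followed here in embryonic stem cells (ESCs) with and without telomerase. The members were all rows of the deposited table whose repeat name begins with Lx and whose class is LINE, out of 623916 copies of transposable elements (TEs) in all. They carried 21 subfamily names from Lx to Lx10, and together they covered 17.92 Mb of the mm10 assembly. The 9 libraries came from C57BL/6 ESCs in 3 groups of 3, namely fourth-generation (G4) Terc-/- cells, first-generation (G1) Terc-/- cells and wild-type (WT) cells. Terc encodes the RNA template of telomerase. Per the study's methods, G4 ESCs were derived from blastocysts of intercrossed third-generation Terc-/- mice and G1 ESCs from intercrossed Terc+/- mice, so the absence of Terc is shared by G4 and G1 and the generations without it differ. The labels state that feeder cells were removed before total RNA was taken.

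A complete LINE-1 has a promoter at its 5′ end, open reading frames for an RNA-binding protein and for an endonuclease and reverse transcriptase, and a 3′ end with a poly(A) tail. Most insertions are cut short at the 5′ end, and old ones have collected mutations, so that an old copy is usually transcribed as a piece of a longer RNA such as an intron, a 3′ UTR or a noncoding RNA. Lx elements spread early in the history of murine rodents, before the L1Md elements that still move in mice. RNA that reads as Lx can therefore come from a host gene as well as from the element.

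The Lx copies were short, and most had few reads. Their median length was 434.5 bases, the longest spanned 6953 bases, and 112 were over 5000 bases long. Of all Lx copies, 74.3% had fewer than 5 counts over the 9 libraries together. The fifth field of the row identifiers has values whose meaning the file does not state. The median of this field lay between 87.0 in Lx3_Mus and 273.5 in Lx8. By GENCODE M21, 61.0% of the Lx copies lay in introns, 13.1% within 5 kb of a gene and 20% over 5 kb from any gene. Only 4.19% lay in exons for at least 0.5 of their length and 1.40% in part, and these exonic and partly exonic copies held 22% and 9.56% of the Lx counts. Introns held 50.2% and copies over 5 kb from genes 7.08%. Within genes, 48.2% of all Lx copies stood antisense to the gene and 18.4% in sense.

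The stretches below show what Lx sequence looks like inside the RNAs on which the results turn. They are copied from GENCODE M21 transcripts on GRCm38, the assembly called mm10, and each is given in the direction of its transcript with the bases of the Lx copy in capitals. The first is the exon of 9230116N13Rik at chr1:136413315-136413614 on the minus strand. The second is the whole last exon of the noncoding RNA Gm17501 at chr3:145677281-145677580 on the plus strand, all of it Lx4A. The third, chr3:75648279-75648578 on the minus strand, is from Platr10, a noncoding RNA of ESCs whose annotated start lies inside the copy. The fourth, chr3:157895246-157895545 on the minus strand, is from Gm43314, which runs antisense to its Lx7 copy. These 4 belong to copies named by rule, by the size of their change or of their counts.
Lx7 in 9230116N13Rik: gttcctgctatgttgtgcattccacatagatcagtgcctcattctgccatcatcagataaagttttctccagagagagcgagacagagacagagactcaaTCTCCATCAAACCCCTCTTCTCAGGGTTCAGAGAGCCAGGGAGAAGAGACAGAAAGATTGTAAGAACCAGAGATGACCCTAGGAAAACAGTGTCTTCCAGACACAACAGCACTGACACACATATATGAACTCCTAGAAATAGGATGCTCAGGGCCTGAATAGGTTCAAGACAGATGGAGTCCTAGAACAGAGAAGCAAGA
Lx4A in Gm17501: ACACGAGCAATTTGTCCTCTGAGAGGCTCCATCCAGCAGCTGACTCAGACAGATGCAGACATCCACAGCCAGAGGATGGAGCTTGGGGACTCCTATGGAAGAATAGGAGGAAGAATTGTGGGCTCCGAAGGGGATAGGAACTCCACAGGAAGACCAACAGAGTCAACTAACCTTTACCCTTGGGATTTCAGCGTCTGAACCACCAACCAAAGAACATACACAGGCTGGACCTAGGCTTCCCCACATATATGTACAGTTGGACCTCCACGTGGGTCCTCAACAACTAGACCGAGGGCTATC
Lx2B in Platr10: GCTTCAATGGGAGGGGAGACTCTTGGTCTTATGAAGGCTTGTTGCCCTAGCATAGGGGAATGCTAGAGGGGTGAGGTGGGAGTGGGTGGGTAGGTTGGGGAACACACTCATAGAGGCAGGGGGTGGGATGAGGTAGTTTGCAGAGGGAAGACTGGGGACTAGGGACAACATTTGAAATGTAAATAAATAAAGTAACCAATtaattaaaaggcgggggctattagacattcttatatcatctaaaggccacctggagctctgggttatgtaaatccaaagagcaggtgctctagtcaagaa
Lx7 in Gm43314: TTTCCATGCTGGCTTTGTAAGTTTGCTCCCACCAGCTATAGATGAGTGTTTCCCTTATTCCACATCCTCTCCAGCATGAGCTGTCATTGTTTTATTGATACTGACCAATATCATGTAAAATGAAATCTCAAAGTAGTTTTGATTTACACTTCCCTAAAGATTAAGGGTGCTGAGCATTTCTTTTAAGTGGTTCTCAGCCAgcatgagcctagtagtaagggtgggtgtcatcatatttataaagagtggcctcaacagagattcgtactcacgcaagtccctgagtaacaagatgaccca

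Another pair of exons was chosen after the values were seen, because the copies in them moved far in opposite directions. These are exons of the noncoding RNAs Platr27 at chr2:157595597-157595896 and 9030622O22Rik at chr2:147972715-147973014, both on the minus strand of GRCm38 and both from GENCODE M21. The last stretch is a RefSeq promoter window on GRCm38.p6, at chr6:87009586-87009885 on the plus strand, which reaches from 250 bases before to 50 bases after the start of Nfu1, a gene for an iron-sulfur cluster protein. Its Lx7 copy ends 82 bases before the gene starts. Capitals again mark the bases of the copy.
Lx9 in Platr27: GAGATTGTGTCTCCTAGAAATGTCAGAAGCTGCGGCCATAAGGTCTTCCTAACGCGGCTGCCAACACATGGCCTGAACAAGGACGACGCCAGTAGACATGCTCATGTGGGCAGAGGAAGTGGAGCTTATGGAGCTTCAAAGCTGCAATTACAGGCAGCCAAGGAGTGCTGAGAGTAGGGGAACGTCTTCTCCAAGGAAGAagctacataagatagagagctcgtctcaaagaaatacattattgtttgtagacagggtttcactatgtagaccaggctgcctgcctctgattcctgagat
Lx7 in 9030622O22Rik: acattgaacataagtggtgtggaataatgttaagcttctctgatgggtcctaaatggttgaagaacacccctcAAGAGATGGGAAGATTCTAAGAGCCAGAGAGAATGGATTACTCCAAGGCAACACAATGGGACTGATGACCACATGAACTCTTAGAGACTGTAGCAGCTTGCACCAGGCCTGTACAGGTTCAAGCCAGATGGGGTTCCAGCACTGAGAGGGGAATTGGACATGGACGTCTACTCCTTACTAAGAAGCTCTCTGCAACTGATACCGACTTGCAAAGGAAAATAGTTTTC
Lx7 at the Nfu1 promoter: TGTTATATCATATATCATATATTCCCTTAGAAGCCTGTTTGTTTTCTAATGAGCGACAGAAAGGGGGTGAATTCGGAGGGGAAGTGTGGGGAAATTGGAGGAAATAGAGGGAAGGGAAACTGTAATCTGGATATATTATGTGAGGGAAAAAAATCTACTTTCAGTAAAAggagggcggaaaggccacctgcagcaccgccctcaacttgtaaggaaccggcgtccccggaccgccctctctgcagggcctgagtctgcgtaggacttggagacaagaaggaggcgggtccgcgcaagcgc

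The printed Lx7 bases in sense, in 9230116N13Rik and 9030622O22Rik, had a best local alignment of 156 columns, of which 106 (67.9%) held identical bases. Other pairs of the 7 stretches, most of them from unlike subfamilies, ran from 58.1% over 179 columns to 74.4% over 43 columns. Identity alone thus does not set the Lx7 pair apart. Its alignment score, which rises with the number of matching bases, was the highest of all pairs at 97, with 50 for the next. Other pairs among the Lx7 stretches scored 20 to 28. The polyadenylation signal AATAAA was searched on both strands of the 7 stretches. It stood on the transcript strand in the Lx2B part of Platr10, the other strand of the Gm43314 stretch held it too, and the other 5 stretches held it on neither. The same letters occurred on either strand in 6449 of 32851 RefSeq promoter windows of the same length (19.6%).

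Depth set a limit on what could be read for single copies. Library totals ranged from 918879 to 1137257 estimated counts over all TEs, and the Lx copies took 27231 to 35640 of them. Scaling to a common level used TMM factors of 1.05 to 1.09 in G4, 0.960 to 0.969 in G1 and 0.962 to 0.980 in WT. Within each group every pair of libraries differed by more than counting noise over the 216 or 217 best covered whole-number Lx copies (chi-square per degree of freedom 1.24 to 1.56), so no library was counted as a repeat of another. Terc was not analysed here, since the table lists TE copies, so group membership comes from the labels alone. The labels do not say whether the libraries of a group came from separate cultures. P-values therefore measure only the spread between these libraries, and cell line and generation cannot be told apart.

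Lx RNA as a whole took a larger share of unscaled TE counts in G4 ESCs, but after TMM scaling its level was not above that in G1. The share was 3.48%, 3.36% and 3.32% in the G4 libraries, 2.99%, 3.10% and 3.18% in the G1 libraries and 3.02%, 2.88% and 3.07% in the WT libraries. All 3 G4 libraries were above the other 6, and G1 overlapped with WT. The 3 groups differed by an exact permutation test over the 280 splits of 9 libraries (p = 0.0107, smallest possible 0.00357). Pairwise, the difference was 0.398 percentage points for G4 against WT and 0.300 for G4 against G1, both at the smallest two-sided p that exact permutation of 3 against 3 allows (0.1), and 0.0982 for G1 against WT (exact p = 0.300). With TMM scaling the summed Lx level was 31740 ± 414 CPM in G4, 32010 ± 834 CPM in G1 and 30780 ± 704 CPM in WT (SD, n = 3 libraries each), so the order of G4 and G1 depends on the scaling. As a share of LINE counts, Lx took 21.1%, 20.9% and 20.6% in G4, up to 19.7% in G1 and 19.0%, 18.5% and 19.4% in WT. Among copies over 5 kb from genes the Lx share was 4.21%, 3.96% and 3.92% in G4, 2.11%, 2.30% and 2.57% in G1 and 2.27%, 2.09% and 2.42% in WT (exact p over the 3 groups 0.0250). The TMM-scaled level of Lx there was 2583 ± 74.0 CPM in G4, 2163 ± 187 CPM in G1 and 1909 ± 112 CPM in WT (SD, n = 3 libraries each), a smaller relative gap than that of the shares. With the scaling of the whole table, 39.1% of 386 repeat names in that position rose in G4 against WT and 10.4% fell. In bulk RNA, fewer cells with an RNA and less of that RNA per cell cannot be told apart.

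**Figure D1:**
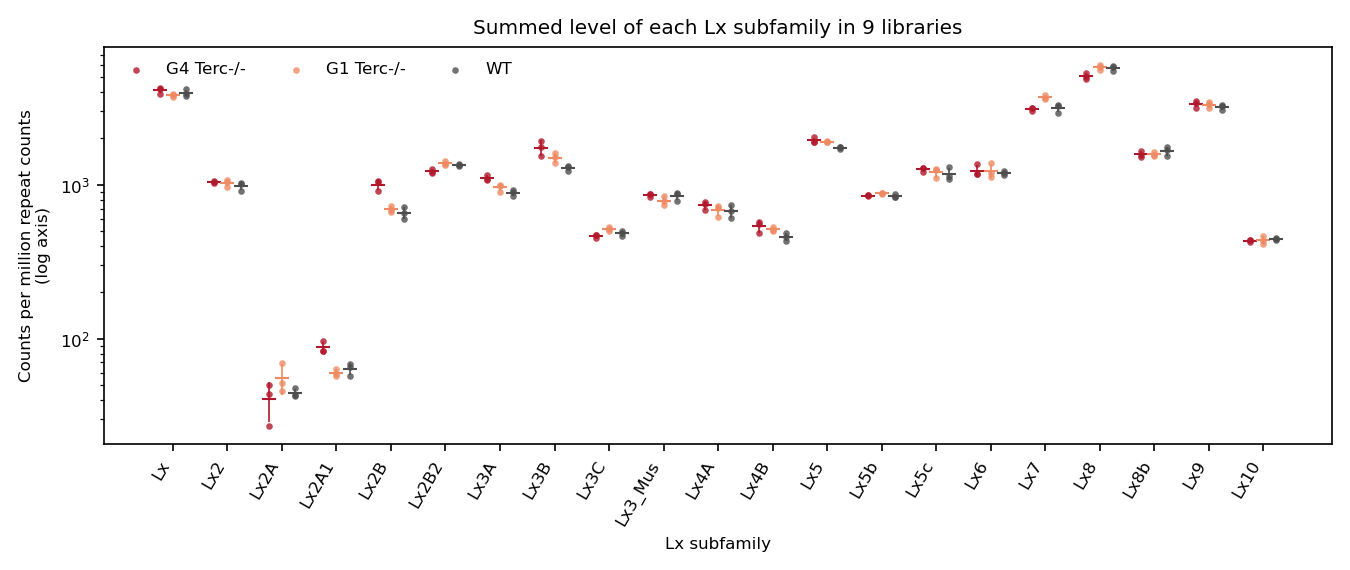
Level of each of the 21 Lx subfamilies in every library, in CPM of all TE counts after TMM scaling, on a log axis from Lx to Lx10. Points are single libraries coloured by group (G4, G1, WT), and the bars give the mean and SD of 3 libraries. Lx8 lies at the top with 4881 to 5951 CPM and Lx2A at the bottom with 27.2 to 69.6 CPM, and the clearest gaps between G4 and WT are in Lx2B, Lx2A1, Lx3B and Lx3A.

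Per length of annotated sequence the subfamilies were read at unequal levels. Lx3B had the highest level, at 4705 CPM per Mb in G4, 4059 in G1 and 3477 in WT, and Lx2A the lowest in G4 and WT, at 447 CPM per Mb in G4, 615 in G1 and 491 in WT. A few copies decided many of these levels. The largest single copy held 35.6% of all Lx2B counts, 34.9% of Lx3A counts, 33.2% of Lx3B counts and 32.8% of Lx5b counts, but only 4.44% of Lx9 and 6.28% of Lx8 counts. Lx8 had the most counts of any Lx subfamily, 17.5% of the total, spread over 5184 copies.

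In G4 against WT, 6 of the 21 Lx subfamilies rose and 2 fell (28.6% and 9.52%). Over all 853 repeat names tested, 23.1% rose and 23.4% fell, so the share of rises was near that background and the share of falls below it. The median log2 fold change was 0.06 for Lx and 0.00 for all names. The 78 tested names of the older L1M elements gave 5 rises and 25 falls, the 6 L1Md names 1 and 3, and the 5 L1_Mus and L1_Mm names 3 and 0. Scaling by library totals alone moved the median of all names by 0.135 on the log2 scale, and 12 Lx subfamilies then rose and 0 fell. The share of all names called under that scaling is not given here, so these 12 rises are not read as particular to Lx. No Lx subfamily changed by over 2-fold. A call here means an adjusted p under 0.05 in the quasi-likelihood test of edgeR, with p-values adjusted over all names by Benjamini and Hochberg.

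Lx2B, a subfamily with 407 copies, moved most. It stood at 904, 1051 and 1045 CPM in G4, 660, 684 and 728 CPM in G1 and 600, 657 and 715 CPM in WT. The G4 libraries lay above all others, while G1 and WT overlapped. The log2 fold change in G4 against WT was 0.61 (SE 0.07, edgeR adjusted p = 8.30e-07). Its relative Lx2A1 is rarer, at 83.6, 96.4 and 83.4 CPM in G4, 59.1, 63.8 and 57.4 in G1 and 57.1, 65.0 and 68.0 in WT, and rose by 0.47 (SE 0.14, edgeR adjusted p = 0.0113). The G4 values of Lx2A1 again lay above the other 6. The Lx2A1 rise was not called without G4 replicate 2 (0.40), without WT replicate 1 (0.40), without its largest copy (0.36) or without the copies of 4 windows that hold zinc-finger genes, described below (0.18).

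Lx3B and Lx3A rose too, each with a large single copy. Lx3B had 1524, 1930 and 1749 CPM in G4, 1600, 1383 and 1505 in G1 and 1232, 1293 and 1321 in WT (log2 fold change 0.44, SE 0.07, edgeR adjusted p = 3.50e-05). Its G1 libraries overlapped with G4 and lay above WT. Lx3A had 1094, 1153 and 1066 CPM in G4, 898, 979 and 1000 in G1 and 841, 901 and 921 in WT (0.31, SE 0.06, edgeR adjusted p = 0.000176). Its G4 libraries did not overlap with the others. Smaller rises were called for Lx4B (0.23, edgeR adjusted p = 0.0163), whose G4 and WT libraries overlapped and whose call was lost without G4 replicate 1 (0.18), G4 replicate 3 (0.21) or WT replicate 2 (0.20), and for Lx5 (0.16, edgeR adjusted p = 0.00717). Without exonic copies the Lx5 rise was not called (0.13), and over 5 kb from genes its value was 0.02, with the scaling of the whole table.

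Lx8 and Lx2B2 were the subfamilies that fell. Lx8 had 5342, 4881 and 4970 CPM in G4, 5572, 5839 and 5951 in G1 and 5820, 5466 and 5870 in WT (-0.18, SE 0.04, edgeR adjusted p = 0.00160). The G4 libraries were the lowest, by a small margin. Lx2B2 had 1182, 1272 and 1210 CPM in G4, 1347, 1431 and 1370 in G1 and 1357, 1313 and 1339 in WT (-0.13, SE 0.05, edgeR adjusted p = 0.0407). Neither fall was called when libraries were scaled by their totals alone, and Lx2B2 was then level (0.01). The fall of Lx8 was also lost without exonic copies (-0.09) and in whole-number copies (-0.06), and over 5 kb from genes its value was 0.27, all with the scaling of the whole table. The call of Lx2B2 was also lost when any library but G4 replicate 2 was left out (-0.14 to -0.10). The other 13 subfamilies were not called in G4 against WT, with adjusted p-values by edgeR of 0.198 to 0.861. Their log2 fold changes were 0.06 for Lx, 0.09 for Lx2, -0.14 for Lx2A, -0.06 for Lx3C, 0.02 for Lx3_Mus, 0.13 for Lx4A, 0.01 for Lx5b, 0.09 for Lx5c, 0.05 for Lx6, -0.03 for Lx7, -0.07 for Lx8b, 0.06 for Lx9 and -0.04 for Lx10.

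**Figure D2:**
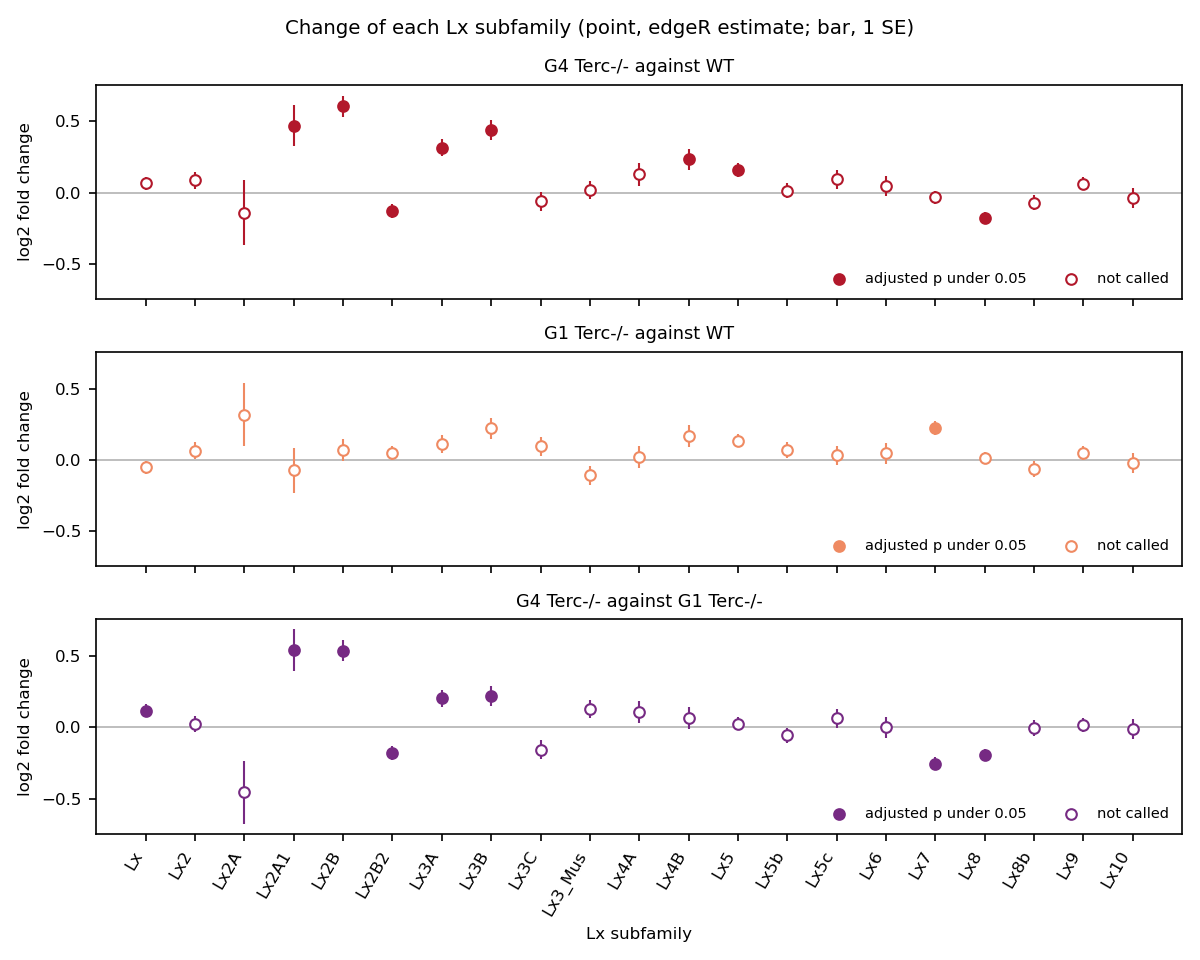
Log2 fold change of each Lx subfamily in G4 against WT (top), G1 against WT (middle) and G4 against G1 (bottom), with 1 SE from edgeR. Filled symbols passed an adjusted p of 0.05 over all 853 names. Lx2B and Lx2A1 stand highest in both comparisons with G4, and Lx7 is the only filled symbol in G1 against WT.

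In G1 against WT only Lx7 rose (4.76% of 21) and 0 Lx subfamilies fell, where 5.51% of all names rose and 6.33% fell. Lx7 had 3655, 3623 and 3809 CPM in G1 and 3266, 2931 and 3290 in WT (log2 fold change 0.22, SE 0.05, edgeR adjusted p = 0.00287). Its level in G4 was 3132, 3147 and 3004 CPM, within the WT range, so G1 alone stood out. One copy, the Lx7 over Gm43314, held 18.6% of the Lx7 counts, and without it Lx7 was not called in G1 against WT or in G4 against G1. Lx3B and Lx5 missed the threshold in G1 against WT with values of 0.22 and 0.13 (edgeR adjusted p = 0.0510 and 0.0656).

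In G4 against G1, 5 Lx subfamilies rose and 3 fell (23.8% and 14.3%), against 19.5% and 23.0% of all names. The rises were Lx2A1 (0.54), Lx2B (0.54), Lx3B (0.22), Lx3A (0.20) and Lx (0.12), and the falls were Lx7 (-0.26), Lx8 (-0.19) and Lx2B2 (-0.18), all with edgeR adjusted p-values of 0.0413 or less. The rise of Lx2A1 was lost without the 4 zinc-finger windows. With the scaling of the whole table it was also lost without exonic copies (0.42, edgeR adjusted p = 0.0507) and over 5 kb from genes (0.20). The rise of Lx was lost when any of 5 libraries (all 3 of G1 and replicates 2 and 3 of G4) or chromosome 6 or the exonic copies were left out. That of Lx3A was lost without G1 replicate 1 (0.17), and that of Lx3B without G1 replicate 2, without G4 replicate 2 or without its largest copy. The fall of Lx2B2 was lost without G1 replicate 2 (-0.15) or without its largest copy (-0.11), and that of Lx8 without exonic copies (-0.17 with the scaling of the whole table). Scaling by library totals gave 12 rises and 0 falls here as well, again without a share of all names beside them. This comparison shares its G4 libraries with the one against WT.

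The counts allowed 439 Lx copies to be tested singly, 1.55% of all Lx copies, and these held 53.9% of the Lx counts. The filter for low counts left out the other 27893. In G4 against WT, 117 of the tested copies rose and 77 fell (26.7% and 17.5%), where 21.3% of all 13278 tested TE copies rose and 21.3% fell. The median log2 fold change was 0.15 for the Lx copies and -0.02 for all. Of the called Lx copies 90 rose and 54 fell by over 2-fold, where 2054 and 2010 of all 13278 tested TE copies did. In G4 against G1 the counts were 95 and 72 (21.6% and 16.4%), against 19.0% and 19.2% of all copies. In G1 against WT 7 Lx copies rose and 6 fell (1.59% and 1.37%), against 2.41% and 4.36% of all.

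**Figure D3:**
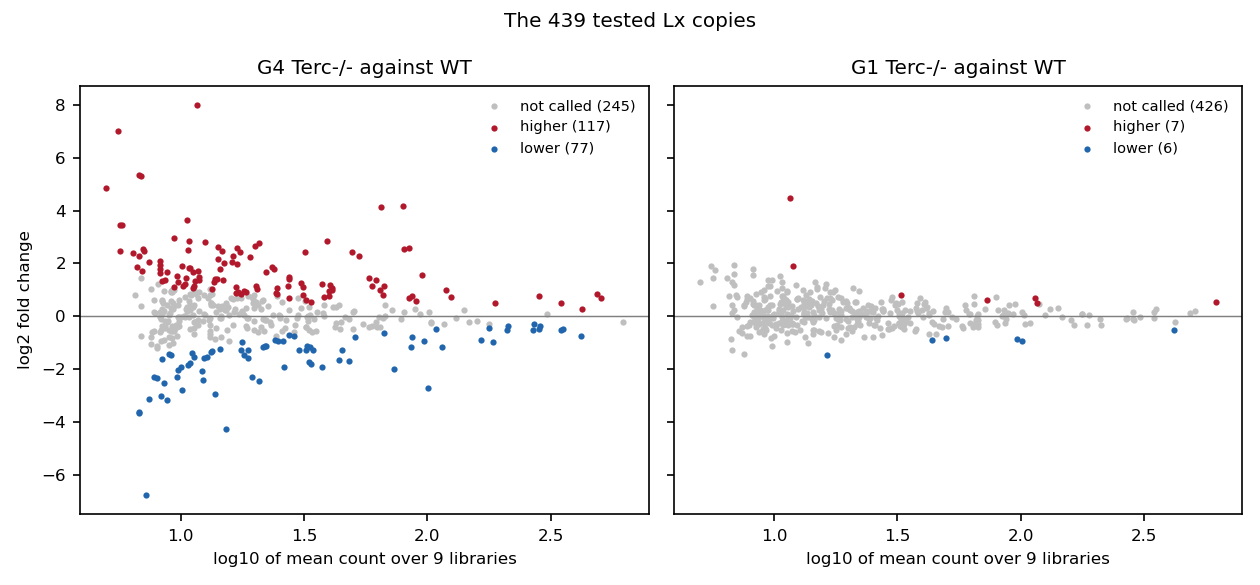
Log2 fold change of the 439 tested Lx copies against the log10 of their mean count per library, in G4 against WT (117 rose, 77 fell) and in G1 against WT (7 rose, 6 fell). Coloured points passed an adjusted p of 0.05 in edgeR. Fitted values of copies with 0 counts in a group depend on the prior count of the fit and are not a measure of fold.

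Among copies with at least 10 counts per library on average, the largest rise in G4 was of an Lx5 in an intron of Zfp638, a zinc-finger gene, on the strand opposite to the gene (chr6:83877319-83877864). It had 25, 35 and 37 counts in G4, 3, 4 and 1 in G1 and 0, 0 and 0 in WT. The copy was silent in WT at this depth and low in G1. Set against a floor of 3 counts over the WT group, its scaled level was at least 30.7-fold higher in G4 than in WT (edgeR adjusted p = 2.59e-08). It was the one copy among the 8 largest rises that was also called in G1 against WT (at least 2.63-fold higher, edgeR adjusted p = 0.0372).

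The next rise was an Lx in the exon of Slfn9, of the Schlafen family of growth and antiviral regulators (chr11:82978397-82980159). It had 205, 219 and 202 counts in G4, 25, 18 and 13 in G1 and 10, 10 and 13 in WT, a log2 fold change of 4.16 (SE 0.21, edgeR adjusted p = 2.22e-14). The G4 libraries were each above 200 counts and no other library passed 25. The third lay outside genes. It was an Lx2B on chromosome 4, 9166 bases from Gm11928 (chr4:32159388-32160005), with 125, 215 and 170 counts in G4, 17.0, 16 and 14 in G1 and 10, 4 and 13 in WT (4.14, SE 0.25, edgeR adjusted p = 5.36e-13). Its values are not all whole, so some of its reads had been divided with other copies.

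The Lx7 in the exon of 9230116N13Rik, whose sequence is given above, had 23, 26 and 34 counts in G4, 5, 2 and 0 in G1 and 3, 0 and 3 in WT (3.64, SE 0.59, edgeR adjusted p = 1.70e-05). An Lx4A of 85 bases in the exon of Aire, the thymic regulator of self-antigen expression, had 15, 26 and 31 counts in G4, 0, 10 and 6 in G1 and 1, 4 and 4 in WT (2.86, SE 0.58, edgeR adjusted p = 0.000268). An Lx5 antisense in an exon of the Y-linked histone demethylase gene Kdm5d had 25, 30 and 29 counts in G4, 2, 8 and 8 in G1 and 4, 0 and 7 in WT (2.82, SE 0.51, edgeR adjusted p = 7.50e-05). In each of these 3 the lowest G4 library lay above the highest of the other 6.

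An Lx6 on chromosome 13 lay 1118 bases from Tert, the gene for the catalytic protein of telomerase (chr13:73650961-73651510). It had 37, 43 and 50 counts in G4, 10, 17 and 12 in G1 and 2.45, 6 and 10 in WT. G4 lay above both other groups, and G1 met WT at 10 counts. The log2 fold change was 2.76 in G4 against WT (SE 0.36, edgeR adjusted p = 7.63e-07), and 1.08 in G1 against WT, which was not called (SE 0.42, edgeR adjusted p = 0.140). The remaining one of the 8, larger than the Kdm5d and Tert changes, was an Lx5c on chromosome 5 at chr5:104640220-104641102, 86013 bases from D930016D06Rik (2.85, edgeR adjusted p = 1.43e-07), described with its neighbours below.

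The largest fall was of an Lx8 in the exon of Btn1a1, a butyrophilin of milk fat globules, on the opposite strand (chr13:23457740-23458159). It had 2, 1 and 1 counts in G4, 15, 20 and 19 in G1 and 19, 33 and 27 in WT (-4.25, SE 0.50, edgeR adjusted p = 1.56e-07). G4 was nearly empty and G1 overlapped with WT. Among the 8 falls named by size, the one with the most counts was of an Lx2B2 in an intron of Myo6, which encodes a myosin motor (chr9:80290087-80291944). This copy had 20, 33 and 33 counts in G4, 93, 122 and 71 in G1 and 177, 170 and 188 in WT. All 3 groups were apart, with G1 between G4 and WT. The log2 fold changes were -2.71 in G4 against WT (SE 0.17, edgeR adjusted p = 1.21e-12), -0.93 in G1 against WT (SE 0.14, edgeR adjusted p = 7.99e-05) and -1.78 in G4 against G1 (SE 0.18, edgeR adjusted p = 1.98e-08). The other exonic repeats of Myo6 fell by 2.73 on the log2 scale in G4 against WT (SE 0.70, edgeR adjusted p = 0.000945).

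The 6 further falls named by rule had log2 fold changes of -2.95 to -2.07. An Lx3_Mus in 9530026P05Rik on chromosome 6 had 2, 7 and 1 counts in G4, 13, 15 and 10 in G1 and 29, 19 and 28 in WT. An Lx in an intron of Dop1a had 3, 7 and 9 counts in G4, 19, 31 and 19 in G1 and 31, 34 and 34 in WT. In both, G1 was above G4, and neither was called in G1 against WT. An Lx in an intron of Agap3 went the other way in G1, with 1, 3 and 2 counts in G4, 23, 24 and 26 in G1 and 15, 7 and 10 in WT (-2.42 in G4 against WT, and 1.17 in G1 against WT with an edgeR adjusted p of 0.0526). The others were an Lx9 in Slc26a2 (-2.78), an Lx2 lying 12654 bases from Rhod (-2.31) and an Lx3_Mus of 6000 bases in an intron of the pseudogene Gm19324 (-2.07), whose G1 counts of 8, 25 and 6 overlapped with both other groups.

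**Figure D4:**
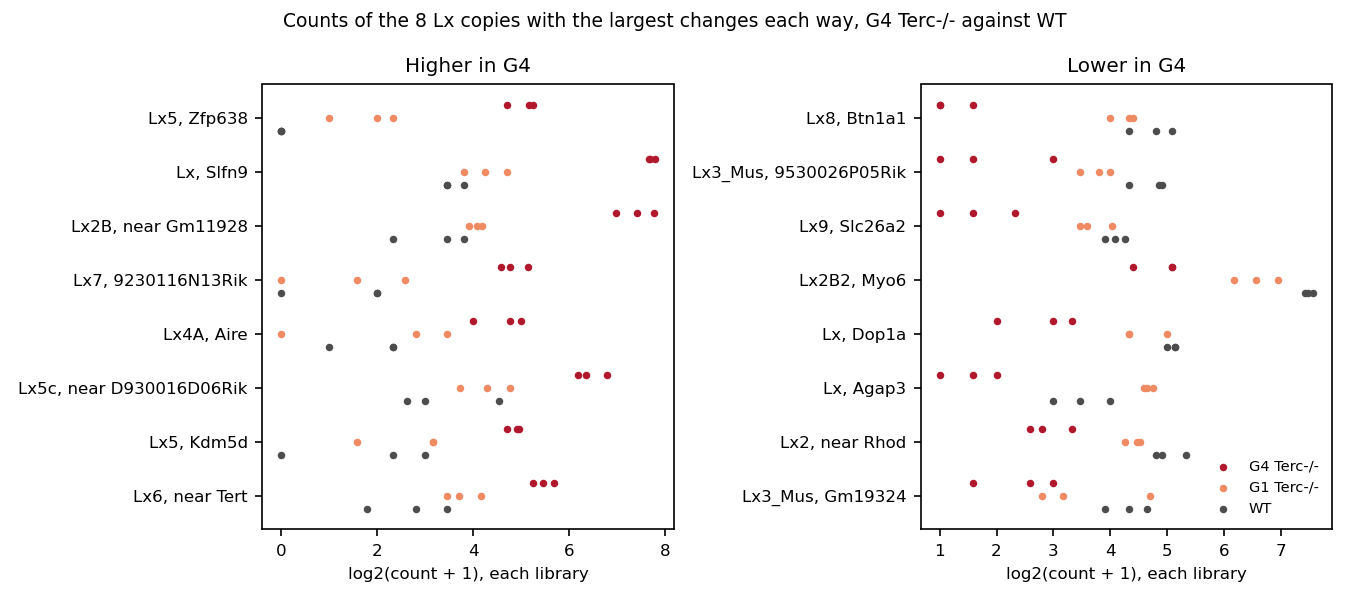
Counts of the 8 largest rises and the 8 largest falls among Lx copies in G4 against WT, as log2(count + 1), with 1 point per library coloured by group. In the rises the G4 points stand apart above G1 and WT, and in the falls they stand below WT, with the G1 points of the Gm19324 copy overlapping both groups. In the Myo6 copy the G1 points (71 to 122 counts) lie between those of G4 (20 to 33) and WT (170 to 188).

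Some copies moved farther but stayed under 10 counts per library on average, so their folds are loose. They were chosen after their values were seen. An Lx8 antisense in an exon of Vax2os had 57 counts over the 3 G4 libraries against 1 over the WT libraries, a scaled ratio of 54.1, for which the 95% interval from counting ran from 9.33 to 2174. An Lx2 in an intron of the Y-linked gene Zfy1 had 56 counts in G4 and 1 in WT (53.2, interval 9.16 to 2137), and an Lx10 in Lemd1 had 41 and 1 (38.9, interval 6.61 to 1574). The Lx7 exon of 9030622O22Rik printed above went the other way, with 0 counts in G4, 26 in G1 and 39 in WT over the 3 libraries of each group. Its level was at least 13.7-fold lower in G4 than in WT and at least 9.02-fold lower than in G1. The intervals cover counting error only.

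In G1 against WT the rises named by rule beside the Zfp638 copy were an Lx8 in an exon of Plek (1.90), an Lx3B in an exon of Mad2l1, a spindle checkpoint gene (0.81), and an Lx5 lying 831 bases from the Hoxa-linked noncoding RNA Halr1 (0.71). The Halr1 copy had 45.5, 52.0 and 57.0 counts in G4, 186, 208 and 154 in G1 and 104, 110 and 117 in WT. G1 was thus above WT and G4 below it (G1 against WT edgeR adjusted p = 0.000478, and -1.17 in G4 against WT with an edgeR adjusted p of 4.12e-07). The Mad2l1 copy had the same order, at 14, 13 and 16 counts in G4, 49, 66 and 46 in G1 and 35, 27 and 28 in WT. Both lie on the part of chromosome 6 described below. The falls in G1 were an Lx9 at 595 bases from Gm10134 (-1.48), the Myo6 copy, an Lx2B in Gfpt1 (-0.88) and an Lx8b in Nhlrc3 (-0.87). The Nhlrc3 copy was lower in both Terc-/- groups, with 61, 85 and 81 counts in G4, 62, 102 and 66 in G1 and 129, 145 and 138 in WT.

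G4 and G1 differed most at copies already named. Upward these were the copies of Zfp638, 9230116N13Rik, Slfn9 and chromosome 4 (3.36 to 3.48), and downward those of Btn1a1 (-3.69) and Agap3 (-3.59), with an Lx8 in the noncoding RNA AC131065.2 (-2.63) and an Lx5b in Cd80, a T-cell costimulatory ligand (-2.48), besides. The AC131065.2 copy had 17, 26 and 18.4 counts in G4, 106, 146 and 113 in G1 and 87.2, 73.0 and 73.2 in WT. The Cd80 copy had 5, 2 and 3 counts in G4, 20, 16 and 19 in G1 and 12, 9 and 12 in WT. In both, G4 was lowest and G1 highest.

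The copies with the most counts of their subfamilies were read next. The Lx2B copy at the start of Platr10 had 296, 439 and 444 counts in G4, 220, 276 and 239 in G1 and 207, 198 and 240 in WT (0.79, SE 0.11, edgeR adjusted p = 2.55e-06). The Lx3A copy in an intron of the deubiquitinase gene Usp9x had 407, 441 and 425 counts in G4, 280, 384 and 327 in G1 and 281, 266 and 319 in WT (0.49, SE 0.11, edgeR adjusted p = 0.000516). In both copies all G4 libraries exceeded all G1 and WT libraries after scaling.

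The largest Lx3B copy, on the X chromosome, rose by 0.70 (edgeR adjusted p = 4.59e-05), but it spans the ribosomal protein pseudogene Rpl7a-ps12 over 688 bases, so its reads may be shared with the parent gene and its level is uncertain. In all, 36 Lx copies with 4.74% of Lx counts held at least 50 bases of a pseudogene. Without them Lx3B was still called in G4 against WT but not in G4 against G1. The Lx7 over Gm43314, in an exon and antisense to the metabolic gene Cth as well, had 371, 556 and 583 counts in G4, 789, 855 and 770 in G1 and 502, 533 and 621 in WT. G1 was the highest (0.53 in G1 against WT, edgeR adjusted p = 0.000688, and -0.75 in G4 against G1, edgeR adjusted p = 1.16e-06). Both genes run opposite to the copy, so its reads cannot be assigned to 1 of them. Counting by strand is not stated, so reads from opposite strands cannot be told apart either, here or at other copies.

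Among the other largest copies in G4 against WT, the Lx3_Mus in AI597479 (0.77) and the Lx6 in the tRNA methyltransferase gene Trmt10b (0.82) rose. The Lx2 in the kinase gene Map4k3 (-1.18) and the Lx4A in Gm17501 (-1.81) fell, and the Gm17501 copy had 12, 19 and 14 counts in G4, 30, 32 and 46 in G1 and 38, 50 and 63 in WT. The largest copy of Lx2A1, in an intron of Zfp729b, rose by 0.90 (edgeR adjusted p = 0.0271). Smaller falls were called for those of Lx5b in the ubiquitin ligase scaffold gene Cul3 (-0.48), Lx5c near Vps33a (-0.49), Lx8 in D10Wsu102e (-0.51) and Lx8b in Zfp871 (-0.38). The largest copies of Lx2A, Lx2B2, Lx3C, Lx4B, Lx5, Lx7, Lx9 and Lx10 were not called in that comparison (edgeR adjusted p = 0.0675 to 0.693).

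Called copies in the same gene had the same direction. In G4 against WT 14 genes held more than 1 called Lx copy, and in each gene they moved 1 way (8 genes up, 6 down). Such copies share their source and are not separate evidence. All 3 Lx5c copies of Slc38a1, an amino acid transporter gene, fell (-3.18 to -1.61), as did 3 of the 4 tested in Gprasp1 (-1.26 to -0.94), and both copies of the dystrophin gene Dmd rose (1.85 and 2.46). After the values were seen, Lx copies in Platr genes, noncoding RNAs named for their association with pluripotency, were looked at together. The 5 tested ones, in Platr14, Platr8, Platr27 and Platr10, rose by 0.79 to 2.59. The Lx9 exon of Platr27 printed above had 132, 235 and 208 counts in G4, 40.8, 25.8 and 25.9 in G1 and 22.1, 33.0 and 35.8 in WT. The 3 tested copies in the imprinted noncoding RNA Rian rose by 1.01 to 1.40.

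For intronic copies the host gene could be read apart from them, through the other repeats in its exons. This was possible for 66 of the 195 tested intronic Lx copies, in 57 genes. Of the 15 such copies that rose in G4 against WT, 11 had a host that was called up, 1 a host called down and 3 a host that was not called. Of the 10 that fell, 4 had a host called down, 0 a host called up and 6 a host not called. Hosts are called in 24.3% of genes upward and 24.0% downward over the 4724 genes read this way in this comparison.

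Rises and falls were also counted by position relative to genes. In G4 against WT 33 of 136 exonic Lx copies rose and 29 fell, 45 of 195 intronic ones rose and 28 fell, and 17 of 57 near genes rose and 9 fell. Among the tested copies of all TEs, 20.5% of exonic ones rose and 21.8% fell, 18.1% of intronic ones rose and 17.6% fell, and 27.1% of those near genes rose and 21.7% fell. Over 5 kb from any gene 12 of 21 rose and 3 fell, with a median log2 fold change of 1.07, where of all 992 tested TE copies in that position 251 rose and 300 fell with a median of -0.25. Copies in sense with their gene gave 39 rises and 31 falls of 113, and antisense copies 49 and 34 of 247. Over all TEs 21.2% of sense copies rose and 20.9% fell, and 19.2% of antisense copies rose and 20% fell. By the fifth identifier field, 42 of 129 copies with a value under 150 rose and 26 fell. In the middle range 41 of 170 rose and 29 fell, and in the highest of 3 ranges 34 of 140 rose and 22 fell. Shares over all TEs in these ranges are not given here.

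When the 5669 Lx copies over 5 kb from genes were summed by subfamily and scaled by the factors of the whole table, 7 of 21 rose and 0 fell in G4 against WT, where 39.1% of 386 names read in that position rose and 10.4% fell. These sums held 2666, 2848 and 2855 counts in G4, 1800, 2385 and 2123 in G1 and 1861, 1623 and 2095 in WT over all Lx names. The rises were Lx2B (1.81), Lx5c (1.18), Lx3C (1.06), Lx5b (1.05), Lx4B (0.60), Lx3_Mus (0.46) and Lx6 (0.35), with edgeR adjusted p-values of 0.0436 or less. Lx2B away from genes had 311, 400 and 378 counts in G4, 116, 139 and 131 in G1 and 82.6, 87.8 and 108 in WT, so the G4 level was well apart from the others. One copy, the one on chromosome 4, held 33.3% of these counts. Lx3C was not called over all its copies (-0.06). In G1 against WT 2 of the 21 sums away from genes rose and 0 fell, where 6.99% of the 386 names rose and 3.63% fell. The 2 were Lx2B (0.47, edgeR adjusted p = 0.0245) and Lx3C (0.77, edgeR adjusted p = 0.0131).

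Several of the single copies away from genes lay close together. On chromosome 5, 4 Lx5c copies near D930016D06Rik and Gm8258 rose by 1.07, 2.64, 2.85 and 1.89 in G4 against WT. The copy named by rule among them, at chr5:104640220-104641102, had 71.1, 80.8 and 110 counts in G4, 12.3, 18.4 and 26 in G1 and 5.17, 22.3 and 7.02 in WT. Its G4 libraries were all at 71 counts or more and no other library passed 26. On chromosome 13, 3 Lx2B copies rose by 1.14, 1.15 and 1.66. Most of these copies have divided values, so neighbours can share reads.

 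Lx (-0.08), Lx2 (-0.07) and Lx9 (-0.04) had values below 0 in these sums and were not called. With scaling factors set on the copies away from genes alone, Lx2B was still up, the values of Lx, Lx2 and Lx9 were lower (-0.49 to -0.45), and those of Lx3A, Lx3B and Lx5 changed sign (-0.41 to -0.08).

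Lx2B also differed between copies with whole and with divided values. Its 50 divided copies, 62.7% of its counts, had 649, 897 and 873 counts in G4, 329, 424 and 384 in G1 and 283, 298 and 368 in WT. Its 357 whole-number copies had 259, 259 and 318 counts in G4, 274, 327 and 275 in G1 and 295, 299 and 378 in WT, and their sum fell in G4 against WT (-0.37, edgeR adjusted p = 0.00171 with the scaling of the whole table). The rise of Lx2B thus rested on copies that share reads with others, among them those of Platr10 and chromosome 4. Of its 12 tested copies 9 rose and 2 fell. Of the 9, 5 lay on chromosome 13 between 65 and 67 Mb.

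**Figure D5:**
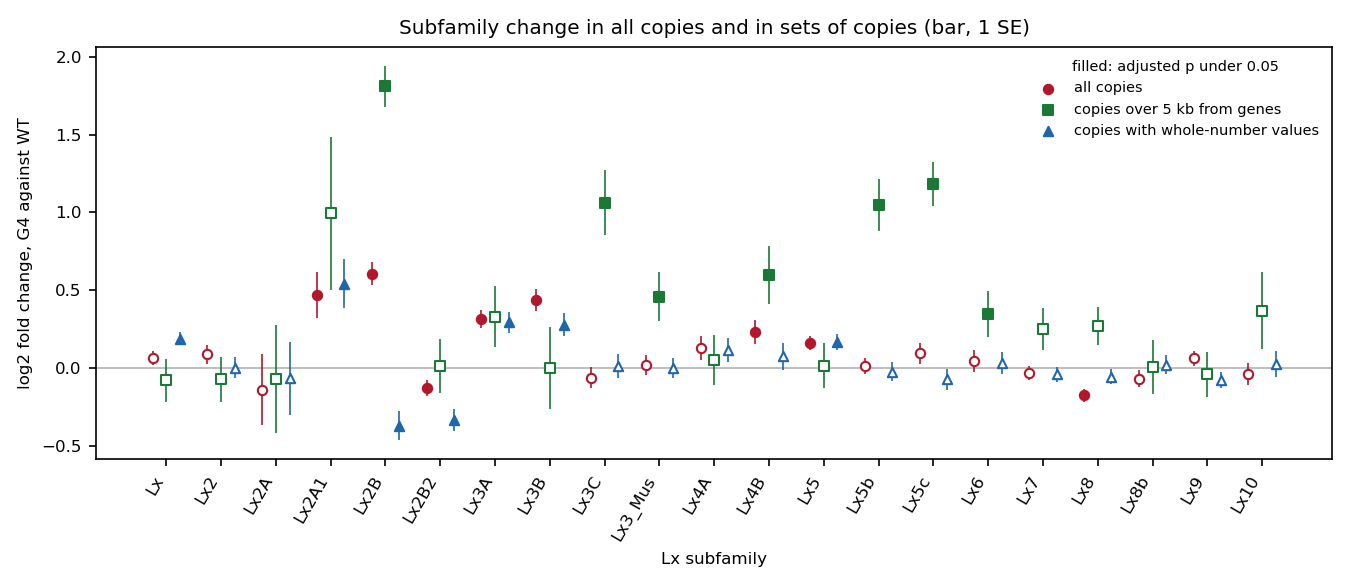
Log2 fold change of Lx subfamilies in G4 against WT, from sums over all copies, over copies more than 5 kb from genes and over copies with whole-number values. Bars are 1 SE from edgeR, filled symbols passed an adjusted p of 0.05, and all sets use the scaling of the whole table. Lx2B lies at 0.61, 1.81 and -0.37 in the 3 sets, the widest spread of any subfamily called over all copies.

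Some chromosomes stood out. On chromosome 13, 13 of 29 tested Lx copies rose and 4 fell in G4 against WT (median 0.96), where 214 of all 682 tested copies rose and 104 fell. Lx counts in the window from 60 to 70 Mb, which holds 30 genes named Zfp among 379, were 789, 840 and 884 in G4, 423, 487 and 437 in G1 and 346, 351 and 415 in WT. This window and 3 others on chromosomes 2 and 4, chosen after the data were seen, were left out as a check. The rises of Lx2B, Lx3B, Lx3A and Lx5 were still called, and those of Lx2A1 and Lx4B were not. On the Y chromosome Lx counts were 129, 148 and 141 in G4, 58.0, 80.6 and 69.0 in G1 and 77.9, 58.0 and 80.3 in WT, and of the 50 tested TE copies there 20 rose and 3 fell.

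A long stretch of chromosome 6 was lower in G4 over the tested TE copies of all names. From 0 to 80 Mb the 240 tested copies had a median log2 fold change of -1.04 in G4 against WT and -1.06 in G4 against G1, but 0.09 in G1 against WT, and each of its 8 bins of 10 Mb had a median below 0 in G4 against WT (-1.23 to -0.37). The bins from 80 to 110 Mb were below 0 too, with medians of -0.362, -0.815 and -0.388, so the stretch has no sharp edge at 80 Mb. The 4 bins from 110 Mb onward had medians of 0.06 to 0.49. Over the 240 bins of other chromosomes the medians ran from -1.16 to 1.19, and 9 were at or under -0.75. The 8 tested Lx copies from 0 to 80 Mb, which include those at Halr1 and Mad2l1, had a median of -1.38. The Lx3_Mus in 9530026P05Rik lies in the bin from 90 to 100 Mb. DNA copy number was not measured in these RNA libraries, so from them alone a loss of DNA and lower transcription cannot be told apart. The study reports a deletion of part of this chromosome in G4 ESCs, from exome sequencing and from maps of chromatin contacts. Whether that deletion is present in the cells of these libraries, and whether it spans the stretch described here, was not tested. Chromosome 6 held 3.70% of Lx counts in G4, 5.42% in G1 and 5.15% in WT. Without it the counts of Lx subfamilies called were 8 in G4 against WT, 1 in G1 against WT and 8 in G4 against G1, and Lx copies gave 106 rises and 68 falls of 413 in G4 against WT. Shares over all names and all TE copies in those fits are not given here, so these counts are not set against a background.

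Promoters held few Lx copies. Of 32851 RefSeq windows from 250 bases before to 50 after a gene start, 73 (0.222%) overlapped an Lx copy, and 1 of those copies had enough counts for a test. This was the Lx7 at Nfu1 printed above, with 189, 311 and 319 counts in G4, 421, 467 and 415 in G1 and 354, 337 and 374 in WT. It was lower in G4 than in either other group (-0.47 against WT, edgeR adjusted p = 0.00158, and -0.74 against G1, edgeR adjusted p = 9.37e-06). The copy lies in the bin of chromosome 6 from 80 to 90 Mb, described above. The 86 tested TE copies of that bin had medians of -0.362 in G4 against WT and -0.223 in G4 against G1. The Zfp638 copy, which rose, lies in the same bin.

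Genes on a list of 35 regulators of LINE-1, not all of which restrain it, could be read only through repeats in their exons. This was possible for 21 of them. In G4 against WT 9 rose and 2 fell, beside the 24.3% and 24.0% of genes given above. Apobec3, a cytidine deaminase that restricts retroelements, rose most, to 452 ± 22.3 CPM in G4 against 86.6 ± 9.63 in G1 and 95.9 ± 22.5 in WT (SD, n = 3 libraries each; 2.23 in G4 against WT, edgeR adjusted p = 9.03e-22). Tet1 and Tet2, which oxidise 5-methylcytosine, rose by 0.90 and 0.87, the helicase gene Mov10 by 1.14, the nucleotide hydrolase gene Samhd1 by 0.62, Hells by 0.37 and Rnaseh2a by 0.48. The silencing genes Trim28 and Fam208a (also called Tasor) rose by 0.94 and 0.80. Suv39h1, a histone H3K9 methyltransferase, fell to 82.9 ± 6.36 CPM in G4, against 274 ± 5.27 in G1 and 384 ± 53.9 in WT (-2.22, edgeR adjusted p = 3.50e-22), and Pphln1, a partner of Tasor, fell by 0.95 on the log2 scale. In G1 against WT Tet1 (0.34) and Hells (0.49) rose, and Suv39h1 (-0.49) and Pphln1 (-0.45) fell. Any part of these genes in the Lx levels was not tested.

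Markers of cell state moved with the groups and stand beside every Lx result above. Of 12 pluripotency genes 5 could be tested and 4 rose in G4 against WT (Nanog, Esrrb, Tdgf1 and Tfcp2l1), with summed levels of 22660 to 26490 CPM in G4, 11310 to 12000 in G1 and 7269 to 7713 in WT. Of 11 primitive endoderm genes 4 could be tested (Gata4, Sox7, Col4a2 and Pdgfra) and all fell, with sums of 105 to 128 CPM in G4, 1997 to 2127 in G1 and 4526 to 4578 in WT. Of 10 fibroblast genes Col1a1 and Prrx1 could be tested and both rose, with sums of 127 to 162 CPM in G4, 105 to 118 in G1 and 46.9 to 73.9 in WT. The other markers on the 3 lists had no repeat in their exons with enough counts. The part of these markers in the Lx results was not tested.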

How the data were processed

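RNA of 9 mouse ESC libraries was read from 1 table of TE copies. The estimated count values were deposited by the authors as raw, partly divided counts per copy. The submitters' processing notes name the mm10 assembly together with featureCounts, STAR 2.5.3a and FastQC 0.11.9, while the division of shared reads and the use of strand are not given in the sources used here. The signal values, deposited by the authors as counts over 1 size factor per library, served only to check that relation. The table's columns named Control were taken as WT. The members, gene lists and tests were chosen with earlier results of these data known.

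After rounding and filterByExpr, edgeR 4.0.16 (R 4.3.3) was fitted by quasi-likelihood to all 9 libraries at once, with TMM factors on the totals of the whole table. This was done for single copies, for subfamilies (sums per repeat name) and for genes (sums over copies in exons of GENCODE M21). Tests were two-sided, with the Benjamini-Hochberg adjustment made across every feature of a level. CPM values are TMM scaled. Each SE was taken from the fold change (log2) and its F value. Overlaps used bedtools 2.31.1, exact permutation tests scipy 1.17.1. Steps were tested on simulated data.

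Named copies were the 8 largest rises and 8 largest falls of G4 relative to WT, and 4 each in the other comparisons, among called copies with a mean of at least 10 counts and no overlap between groups, plus the copy with the most counts of each subfamily. One copy that this rule names is not reported here. Named subfamilies were the 4 largest called rises and falls and that with the most counts. Alternatives were DESeq2 1.42.0 size factors and Wald test, library totals, a looser filter (at least 10 counts in all), a replicate block, 2 groups only, fold rules, autosomes, whole-number copies, copies over 5 kb from genes, copies outside exons, sums without the largest copy, clusters within 10 kb and leaving out each library. Chosen after seeing the data were sums without pseudogene-holding copies, without 4 windows, without chromosome 6, and 3 sets under whole-table scaling.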

Additional observations from a re-analysis of the deposited data

How the results depend on the processing

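The named copies kept their call in 1331 of 1394 values under the alternatives, lost it in 63 and reversed in 0. The called subfamilies kept it in 336 of 442, lost it in 88 and reversed in 18. The count of Lx subfamilies called was 8 in G4 against WT, 1 in G1 against WT and 8 in G4 against G1. Scaling by library totals gave 12, 2 and 12, and turned Lx2B2 in G4 against WT to 0.0056. In G4 against WT the count was 4 without exonic copies under either scaling. In G1 against WT it was 2 with the 2 groups only, on autosomes only, without pseudogene-holding copies and over 5 kb from genes with whole-table scaling, and 0 over 5 kb from genes with own scaling, without exonic copies (1 with whole-table scaling) and without the largest copy. With whole-table scaling, the 2 over 5 kb from genes were Lx2B and Lx3C, and the 1 without exonic copies was Lx3B. Lx7 was called in neither. In G4 against G1 the count was 4 for whole-number copies and 5 without exonic copies (either scaling), 5 without the largest copy and 3 over 5 kb from genes with whole-table scaling. A 2-fold minimum gave 0 in all 3 comparisons, with adjusted or unadjusted p. Leaving out each library gave 6 to 8, 1 to 2 and 5 to 8 subfamilies (5 without G1 replicate 2, and 2 in G1 against WT without G1 replicate 2, G4 replicate 1 or G4 replicate 2), 177 to 230, 8 to 13 and 141 to 199 copies (8 without G1 replicate 3), and share differences of 0.346 to 0.437, 0.0456 to 0.147 and 0.251 to 0.345 percentage points. Called copies were 194, 13 and 167, and in G1 against WT 7 by DESeq2's Wald test, 3 with a 2-fold minimum and 23 with an unadjusted p and that minimum. Copies merged within 10 kb gave 173, 13 and 149. With own scaling over 5 kb from genes, G4 against WT was -0.491 for Lx, -0.484 for Lx2, -0.0791 for Lx3A, -0.406 for Lx3B, 0.651 for Lx3C, -0.400 for Lx5 and -0.453 for Lx9. G4 against G1 was -0.139 for Lx, -0.385 for Lx2, -0.0115 for Lx2A1, -0.0137 for Lx3A, -0.499 for Lx3B, 0.563 for Lx5b and -0.422 for Lx9, and Lx7 in G1 against WT was -0.0052. With whole-table scaling, G4 against WT was 0.0113 for Lx2B2, 1.06 for Lx3C and 0.268 for Lx8, and G4 against G1 was -0.288 for Lx3B, 0.776 for Lx5b, 0.0604 for Lx7 and 0.0874 for Lx8. Whole-number Lx2B was -0.374 with own and -0.370 with whole-table scaling in G4 against WT, and -0.214 and -0.222 in G4 against G1. The cause was not tested. A replicate block gave 7, 1 and 8 subfamilies and 190, 12 and 154 copies. Same-numbered libraries did not deviate together (correlations -0.0153 to 0.0209 over 9 pairs, and 2 of 9 libraries best matched their own number), so the numbers were not taken as pairs. Depth left 27893 Lx copies untested.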
